A study of Rattus norvegicus with 4 samples.

Results

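The genes described are 10 genes of mucus and of goblet cells, out of 17024 genes that the array's probes could be named for: the mucin genes Muc1, Muc2, Muc4 and Muc13, the trefoil factor genes Tff1, Tff2 and Tff3, and Fcgbp, Agr2 and Zg16. They were chosen by name, and every probe whose name, accession record or description gave one of them was taken, which found 17 of the 41012 probes on the array. The name found 14 probes and the description 3, namely a pair of Muc4 probes and the only probe described as an Fc fragment of IgG binding protein. That last probe belongs to Fcgbpl1, which lies next to Fcgbp in the RefSeq gene order of assembly GRCr8, and it is called Fcgbpl1 here. All 17 probes were bright enough to be tested.

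Colon mucosa was taken from rats of the inbred strain F344. Treated rats ate resveratrol, a plant polyphenol, at 1 mg/kg/day for 20 days and then drank 5% dextran sodium sulphate (DSS), which injures the colonic epithelium, for 5 days, while control rats ate standard chow before the same DSS. Each of 4 arrays compared RNA of 2 of the 8 treated rats, labelled with Cy5, with a pool of control RNA, labelled with Cy3, so both sides carry the DSS injury and no uninjured colon was part of the comparison. The makeup of the pool on each array (its number of rats, and if 1 pool served all arrays) and the age of the rats are not given in the sources used here. The dyes were never exchanged, so a dye bias of a probe cannot be told apart from a difference between the groups.

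Mucus covers the colonic epithelium as a gel built on MUC2, a giant secreted glycoprotein that goblet cells fold in the endoplasmic reticulum, coat with O-linked sugars and pack into granules. Transmembrane mucins such as MUC1, MUC4 and MUC13 form a shorter coat on the cell surface, and small trefoil peptides are secreted with the gel and take part in repair of the epithelium. DSS colitis is known for loss of goblet cells and thinning of this layer. In RNA from whole mucosa, a change in the number of cells of a type and a change in RNA per cell cannot be told apart.

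Of the 17 probes, 9 were higher with resveratrol, relative to the control pool, 1 was lower and 7 did not pass the test (limma, Benjamini-Hochberg adjusted p under 0.05 over all 18896 probes tested). Over all tested probes, 24.3% were higher and 22.7% were lower, so 47.1% were called in either direction. Median centring in place of loess turned that balance to 36.3% higher and 9.75% lower. With each gene taken by its brightest probe, Muc1, Muc2, Muc4 and Agr2 were higher, Tff2 was lower, and Muc13, Zg16, Fcgbpl1, Tff1 and Tff3 did not pass, against 25.5% of all genes higher and 19.3% lower. The median log2 ratio, resveratrol over control pool, was 0.47 over the 17 probes and -0.02 over all tested probes. The widest differences were those of Muc2, the secreted gel mucin gene, and of Muc4, and the trefoil genes and Fcgbpl1 lay near or below 0.

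**Figure D1:**
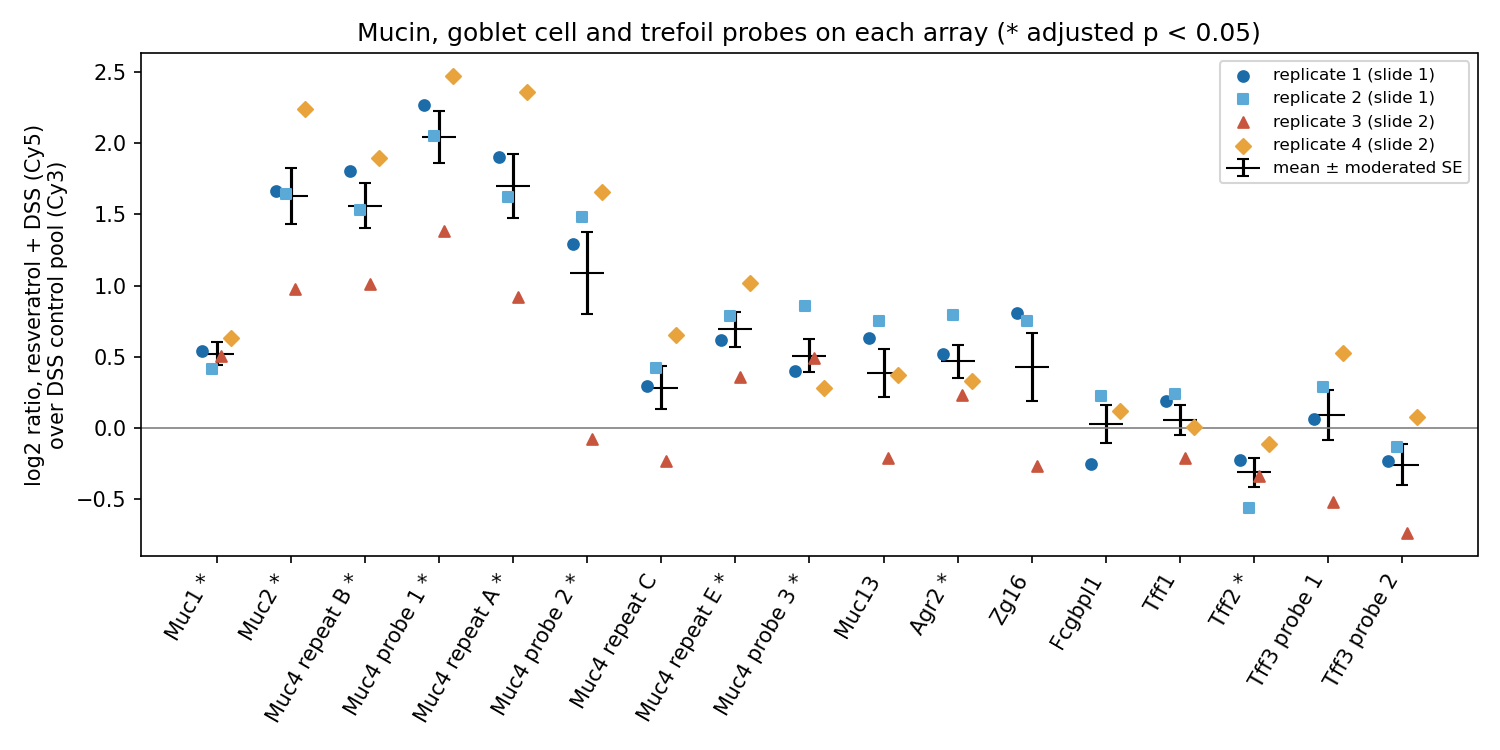
Log2 ratio of resveratrol plus DSS (Cy5) over the DSS control pool (Cy3) for each of the 17 probes, with 1 point per array and the mean with its moderated standard error in black. The Muc2 points and those of 3 Muc4 probes lie between 0.92 and 2.47, whereas replicate 3 (red triangles) is the lowest point of 12 of the 15 probes with a value on every array.

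The Muc2 probe and 5 of the 7 Muc4 probes are shown as sequence, because the Muc4 probes gave unequal answers and because the Muc2 probe and 3 of the Muc4 probes hold motifs whose probes, over the whole array, had a higher median ratio than the rest. Capitals mark 3 motifs wherever they occur on the printed strand, 5′ to 3′. In the Muc4 probes these are CACCTC and, shifted by a letter, the overlapping ACCTCA, and in the Muc2 probe CTCACC. All sequences are 60 bases long and come from the deposited scanner files. The 4 Muc4 repeat probes were designed on partial coding sequences of F344 sialomucin complex, the rat name of MUC4, and Muc4 probe 1 on a predicted Muc4 transcript. The Muc4 probes shown are listed on the minus strand of chromosome 11 of build rn3, at chr11:69913744-69914184 for repeat B, chr11:69887868-69887872 for probe 1, chr11:69913763-69914200 for repeat A, chr11:69913794-69915694 for repeat C and chr11:69912710-69912770 for repeat E. Several positions listed here and below are shorter or longer than 60 bases, so they do not give the exact place of a probe. The files list no position for the Muc2 probe, which was designed on a partial coding sequence too.
Muc2: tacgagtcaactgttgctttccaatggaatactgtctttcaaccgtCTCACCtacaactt
Muc4 probe 1: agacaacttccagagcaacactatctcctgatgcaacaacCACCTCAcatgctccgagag
Muc4 repeat A: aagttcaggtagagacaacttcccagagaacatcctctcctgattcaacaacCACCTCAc
Muc4 repeat B: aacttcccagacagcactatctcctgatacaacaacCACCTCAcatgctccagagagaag
Muc4 repeat C: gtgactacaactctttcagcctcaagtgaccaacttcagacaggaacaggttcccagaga
Muc4 repeat E: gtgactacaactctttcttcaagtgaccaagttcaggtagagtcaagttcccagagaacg
Muc4 probe 1, repeat A and repeat B share the 15-base run caacaacCACCTCAc, and probe 1 and repeat B share 22 bases. Repeats C and E share 17 bases with each other and hold none of the motifs. Since these probes read repeated stretches of a single transcript, they are not independent measurements of Muc4.

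Muc2, the gene of the gel-forming mucin of the colon, rose with resveratrol. Its log2 intensity was 14.54, 14.42, 13.79 and 13.96 in resveratrol replicates 1 to 4, against 12.88, 12.78, 12.82 and 11.72 in the control pool on the same arrays. The lowest resveratrol value lay above the highest control value. The log2 ratios were 1.66, 1.64, 0.97 and 2.24, with a mean of 1.63 ± 0.20 (moderated SE, n = 4 arrays; adjusted p = 0.00492), a 3.09-fold difference with a 95% interval of 1.15 to 2.11 on the log2 scale. Replicate 4 had the highest ratio and the lowest control signal, and replicate 3 the lowest ratio and the lowest resveratrol signal. The mean was 1.65 on slide 1 (replicates 1 and 2) and 1.61 on slide 2 (replicates 3 and 4), and the probe passed the test under all 17 alternative settings tried.

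**Figure D2:**
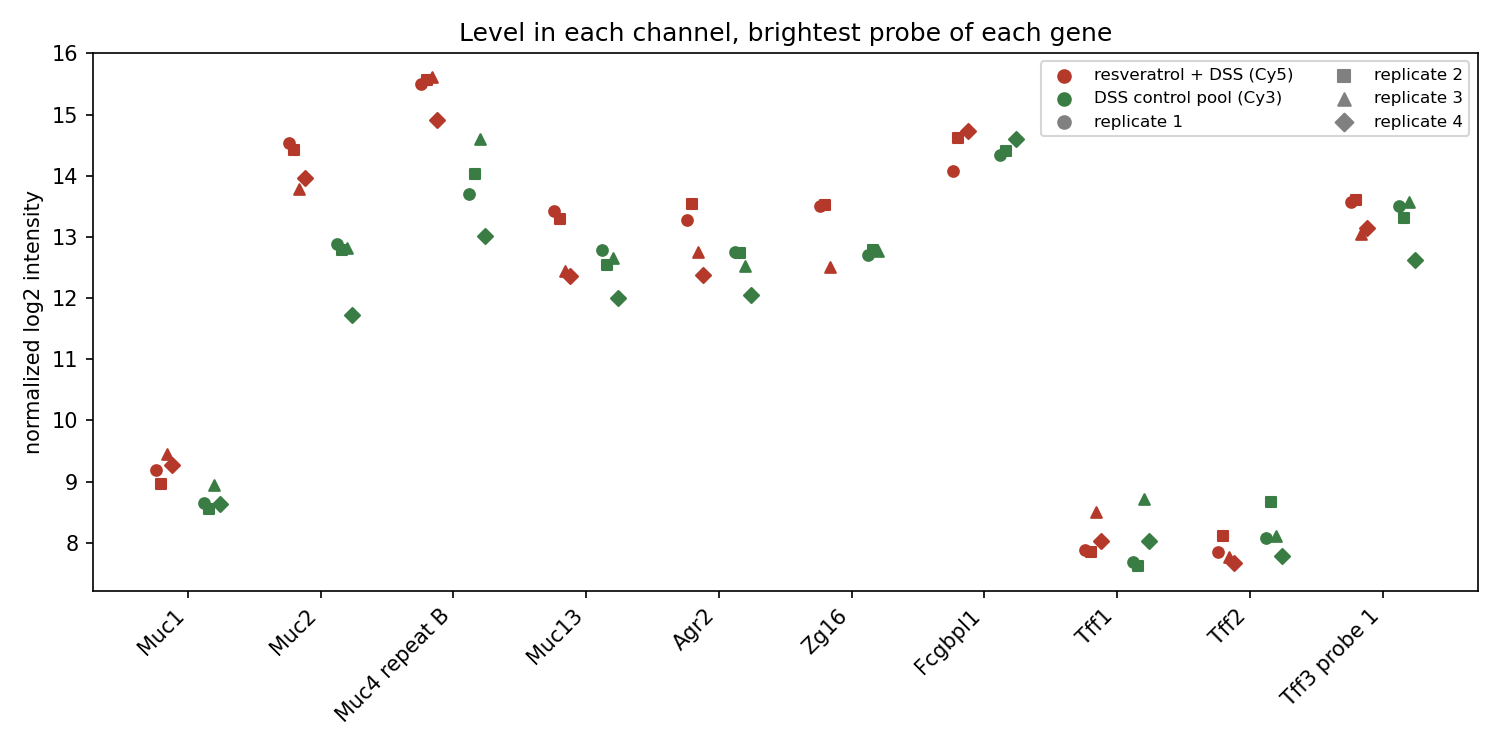
Normalized log2 intensity in resveratrol plus DSS samples (Cy5, red) and in the DSS control pool (Cy3, green) for the brightest probe of each gene, with 1 symbol per replicate. Muc2 and Muc4 are separated by channel on all arrays, while the values of Tff1, Tff2 and Tff3 in the 2 channels overlap; heights of different probes are not comparable.

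Muc4 encodes a large transmembrane mucin whose outer part is built of the repeats shown above, and 6 of its 7 probes were higher. Muc4 probe 1 had log2 ratios of 2.27, 2.05, 1.39 and 2.47 (2.04 ± 0.18, adjusted p = 0.00409). Its resveratrol spots were saturated on all 4 arrays, so the mean fold of 4.13 is a lower bound with respect to the scanner ceiling only. The 95% interval of the mean was 1.60 to 2.49 on the log2 scale. Repeat B, the brightest Muc4 probe, was saturated on all 4 resveratrol spots too and gave log2 ratios of 1.80, 1.53, 1.01 and 1.90. Its mean fold of 2.95 (adjusted p = 0.00409) is bounded in the same way, with a 95% interval of 1.18 to 1.95 on the log2 scale. Repeat A, with no spot at the ceiling, read 1.91, 1.62, 0.92 and 2.36 (1.70 ± 0.23, adjusted p = 0.00545). These 3 probes, which hold the shared run, were above 0.9 on every array.

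The other 4 Muc4 probes, which hold none of the motifs, had mean log2 ratios between 0.28 and 1.09. Muc4 probe 2, at chr11:69888329-69888388 of rn3, had log2 ratios of 1.29, 1.48, -0.08 and 1.65 (1.09 ± 0.29, adjusted p = 0.0273). Replicate 3 thus stood near 0 while the other three stood well above it, and the call was lost when replicate 1, 2 or 4 was left out (adjusted p between 0.0792 and 0.0828). Repeat E read 0.61, 0.79, 0.36 and 1.02 (0.69 ± 0.12, adjusted p = 0.0100), higher on every array. Muc4 probe 3, at chr11:69888050-69888109, read 0.40, 0.85, 0.49 and 0.28 (0.51 ± 0.12, adjusted p = 0.0186). That probe was dim, and its control signal was well above background on 3 of the 4 arrays. Its call was lost without replicate 1 (adjusted p = 0.0566) and without replicate 2 (0.0720). Repeat C read 0.30, 0.42, -0.23 and 0.65 and did not pass (0.28 ± 0.15, adjusted p = 0.159, 95% interval -0.09 to 0.65). All 7 Muc4 means were above 0 under every alternative that gave a value, so the probes agreed on the direction for Muc4 and not on its size.

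The motifs were picked with the ratios of these arrays known, so their link to high ratios is a description. CACCTC was held on the printed strand by 350 of the 18896 tested probes (1.85%), which had a median log2 ratio of 0.30, against -0.03 for the rest. ACCTCA, which overlaps CACCTC in all but the end letters, was held by 2.68% (medians 0.23 and -0.03), and CTCACC by 1.74% (medians 0.21 and -0.03). Of the 990 probes with any of them 37.2% were higher, against 23.6% of those without. Counting either strand, the shares were 3.94%, 4.23% and 3.04%, and the median with any motif was 0.02. Among the 17 probes, the 4 that held a motif on the printed strand were Muc2 and 3 of Muc4, and all 4 were higher, as were 5 of the 13 without one. On the other strand, the Muc13 probe held ACCTCA and the Fcgbpl1 probe CTCACC, and neither had a call. The part of these letters in the Muc2 and Muc4 ratios was not tested.

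Muc1 encodes another transmembrane mucin, expressed on many glandular epithelia. Its probe, at chr2:181352120-181353418 on the plus strand of rn3, was at 9.19, 8.95, 9.46 and 9.26 in log2 intensity in the resveratrol samples, against 8.65, 8.54, 8.95 and 8.64 in the control pool. The log2 ratios of 0.54, 0.41, 0.51 and 0.63 were the most even of the called probes and averaged 0.52 ± 0.08 (adjusted p = 0.00752), a 1.44-fold difference. Muc1 was called under all alternatives except slide 2 alone (adjusted p = 0.0604).

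Muc13, a transmembrane mucin of the apical surface of intestinal cells, did not pass. Its probe, at chr11:68833106-68836803 on the minus strand, gave log2 ratios of 0.63, 0.75, -0.21 and 0.37 (0.39 ± 0.17, adjusted p = 0.0978, 95% interval -0.02 to 0.80). Replicate 3 alone was below 0, and without it the mean was 0.59 with an adjusted p of 0.0108. Leaving out the lowest array raises the mean by construction. Without replicate 1, 2 or 4 the probe did not pass (adjusted p = 0.276, 0.313 and 0.187).

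Agr2 encodes a disulphide isomerase of the endoplasmic reticulum that mouse goblet cells need to make MUC2, and its probe was higher. Log2 intensity, from a probe at chr6:54712688-54714040 on the plus strand, was 13.27, 13.54, 12.76 and 12.37 with resveratrol, against 12.75, 12.74, 12.53 and 12.05 in the control pool, so the ranges of the channels overlapped although every array had the resveratrol sample on top. The log2 ratios were 0.52, 0.79, 0.23 and 0.33 (0.47 ± 0.12, adjusted p = 0.0228). This call was near the threshold: it was lost in 6 of the 17 alternatives, among them without replicate 1 (adjusted p = 0.0799), without replicate 2 (0.0902) and with the scanner's processed signals (0.0522).

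Zg16 encodes a lectin-like protein of goblet cell granules, first known from pancreatic zymogen granules, that in mice keeps Gram-positive bacteria away from the epithelium. Its probe, at chr1:186452143-186452360 on the minus strand, had log2 ratios of 0.81, 0.75 and -0.27 in replicates 1 to 3, and its replicate 4 spot was an outlier spot and left out. The mean of 0.43 ± 0.24 did not pass (n = 3, adjusted p = 0.182, 95% interval -0.18 to 1.04). With replicate 3, its lowest array, left out, the remaining pair of arrays averaged 0.78 with an adjusted p of 0.00944. Without replicate 1 or 2 the means were 0.24 and 0.27, and neither passed (adjusted p = 0.536 and 0.510). Pancreatic enzyme genes, which the same samples held, are given with the cell type markers below.

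The Fcgbpl1 probe, at chr1:83342633-83342692 on the plus strand, read -0.26, 0.22 and 0.12 in replicates 1, 2 and 4, with the replicate 3 spot left out as an outlier. Fcgbp encodes a mucus protein that is linked to MUC2, and Fcgbpl1 is a neighbouring gene of like name. The mean of 0.03 ± 0.13 did not pass (n = 3, adjusted p = 0.874), with a 95% interval of -0.31 to 0.36.

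None of the trefoil genes was higher in the main test. Tff3, the trefoil peptide of intestinal goblet cells, had log2 intensities at its brightest probe, at chr20:9470133-9470189, of 13.57, 13.60, 13.04 and 13.14 with resveratrol, against 13.50, 13.31, 13.57 and 12.62 in the control pool. The channels overlapped, and the log2 ratios of 0.06, 0.29, -0.52 and 0.53 averaged 0.09 ± 0.17 (adjusted p = 0.684, 95% interval -0.34 to 0.52). This probe passed with outlier spots kept (0.90, adjusted p = 0.0101) and with median centring (0.71, adjusted p = 0.000211). A second Tff3 probe, at chr20:9472138-9472197, read -0.23, -0.14, -0.74 and 0.08 and had a mean of the other sign that did not pass either (-0.26 ± 0.14, adjusted p = 0.169, 95% interval -0.61 to 0.09). Both intervals lie below that of Muc2 (1.15 to 2.11), which goblet cells make as well; the difference between these probes was not tested.

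Tff1 and Tff2, trefoil genes known chiefly from the stomach, gave dim spots. Tff1, at chr20:9527083-9528214, had log2 ratios of 0.19, 0.24, -0.21 and 0.00 (0.05 ± 0.10, adjusted p = 0.684), with signal well above background on 3 arrays with resveratrol and on 2 in the control pool. Tff2, at chr20:9492568-9492627, read 7.85, 8.10, 7.77 and 7.67 in log2 intensity with resveratrol, against 8.07, 8.67, 8.11 and 7.79 in the control pool. Its log2 ratios of -0.23, -0.57, -0.34 and -0.12 were below 0 on all arrays and averaged -0.31 ± 0.10 (adjusted p = 0.0471). With resveratrol the Tff2 signal was well above background on 1 array, in the control pool on all 4. The Tff2 call was lost when each replicate in turn was left out (adjusted p between 0.0513 and 0.210) and in the fit that took slide as a random block (0.0777).

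The arrays differed in how far these genes moved, and their order depended on the processing. With outlier spots kept, replicate 3 was the highest array for Muc2 (1.95, 1.79, 3.09 and 2.95 in replicates 1 to 4). It was the highest for Agr2 too (2.05) and stayed the lowest for Muc4 probe 2 and Tff1. No spot of these probes was itself marked as an outlier. This setting thus changed their values only through the loess curve, which took Muc2 in replicate 3 from 0.97 to 3.09. For all tested probes with a mean log2 intensity of at least 12, the replicate 3 median went from -0.27 to 0.73. The values that follow leave outlier spots out. Replicate 3 gave the lowest log2 ratio for 12 of the 15 probes with 4 values, against 43.3% of all 14227 such probes, and replicate 4 gave the highest for 11 of them, against 22.3%. The median log2 ratio of the member probes was 0.54, 0.75, 0.08 and 0.58 in replicates 1 to 4, against 0.04, 0.04, -0.06 and 0.01 for all tested probes. The control signal of replicate 4 was the lowest of the 4 arrays for 10 of the 15 probes. The share over all probes was not computed for this count, so it is not shown to be particular to these genes. Outlier spots made up 3.45%, 4.68%, 11.0% and 13.7% of spots on replicates 1 to 4, and between 44.1% and 49.2% of spots in Cy5 and between 42.8% and 57.1% in Cy3 were well above background.

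Many of these probes are bright, and the ratio of bright probes moved with the normalization. The 1932 tested probes with a mean log2 intensity of at least 12 had a median log2 ratio of -0.13 after loess, which removes an intensity trend, 0.42 after median centring, which does not, and 0.36 after loess with outlier spots kept. The 9 member probes of that brightness had medians of 0.47, 1.09 and 1.33 in the same order. The median of all tested probes was 0.20 after median centring, and the values given for that setting include this shift. Median centring gave Muc13 a mean of 1.01, Zg16 1.06, Tff3 0.71 at its brightest probe and Fcgbpl1 0.48, all of which then passed, and the second Tff3 probe changed sign to 0.33 without passing. With outlier spots kept, Muc13 (1.12), Zg16 (1.33), the brightest Tff3 probe (0.90) and Fcgbpl1 (0.51) passed too. Muc4 repeat C passed in both settings.

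**Figure D3:**
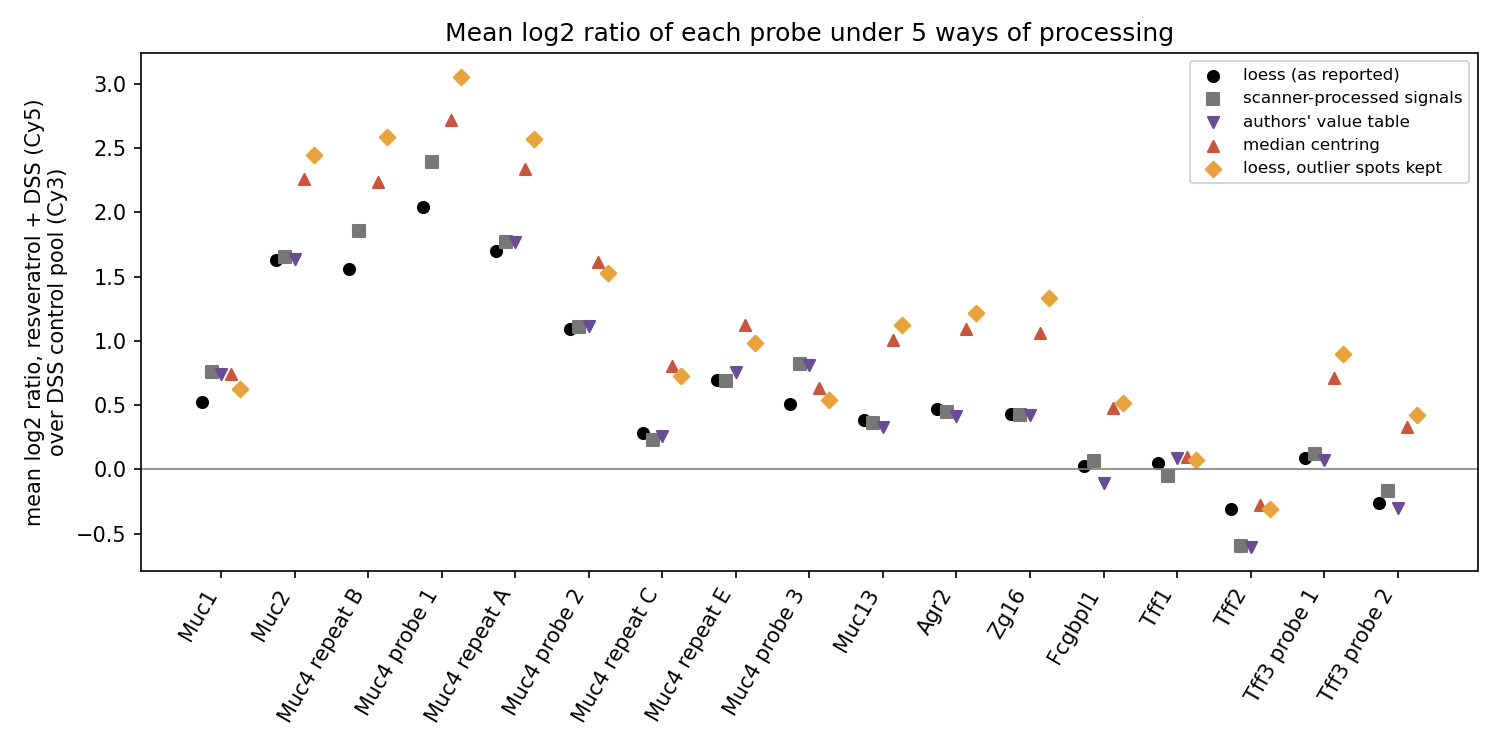
Mean log2 ratio, resveratrol plus DSS over the DSS control pool, of the 17 probes after loess (black), from the scanner's processed signals (grey), from the authors' deposited value table (purple, where the table holds the probe), after median centring (red) and after loess with outlier spots kept (orange). Muc2, Muc1, Agr2, Muc13, Zg16, all Muc4 probes and the brightest Tff3 probe stay above 0 in all settings plotted. The second Tff3 probe lies below 0 in 3 of them and above 0 after median centring (0.33) and with outlier spots kept (0.42).

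Genes that act around these members were taken from lists of known function, each gene by its brightest probe, and their counts stand beside 25.5% of all genes higher and 19.3% lower. Among goblet lineage factors, 4 of 9 tested genes (44.4%) were higher and none lower (median log2 ratio 0.30). Elf3, an epithelial transcription factor gene, had log2 ratios of 1.21, 0.75, 0.30 and 1.13 (0.85 ± 0.17, adjusted p = 0.0125). Foxa3, a forkhead factor gene of the secretory lineage, read 0.83, 0.59, 0.58 and 0.85, a mean fold of 1.64 (adjusted p = 0.0052). Its control pool spots were well above background on no array, so this fold is a lower bound in that respect only. Creb3l1 (0.61 ± 0.11, adjusted p = 0.0114) and Hes1, a Notch target gene that restrains secretory fate (0.57 ± 0.10, adjusted p = 0.0107), were higher too. Spdef, which drives goblet cell maturation, was at 0.19 ± 0.12 and Klf4, another goblet cell factor gene, at 0.22 ± 0.19, and neither passed.

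Genes of folding and of sugar addition were higher in part. In the folding list 6 of 15 tested genes (40.0%) were higher and none lower (median 0.12): Creld2 at 0.86 ± 0.16, the disulphide isomerase genes P4hb at 0.72 ± 0.09, Pdia4 at 0.49 ± 0.09 and Pdia6 at 0.33 ± 0.10, Qsox1 at 0.33 ± 0.09, and Ern2, the epithelial stress sensor gene of the endoplasmic reticulum, at 0.48 ± 0.12. A second Qsox1 probe was at -0.03 without a call, and Ern2 was well above background in the control pool on 1 array, with means of 0.27 to 0.95 over its alternatives. Agr3, the close relative of Agr2, was at 0.02 ± 0.11 without a call. The chaperone gene Hspa5, whose probe holds a motif, was at -0.17 ± 0.11, without a call too. In the glycosylation list 6 of 15 (40.0%) were higher and 2 (13.3%) lower (median 0.24). Chst4 (0.65 ± 0.13), the sialyltransferase gene St6galnac1 (0.64 ± 0.21), Galnt7, whose enzyme adds sugars to glycosylated peptides (0.64 ± 0.09), Ugdh, whose enzyme makes UDP-glucuronate (0.55 ± 0.09), and the core-branching enzyme gene Gcnt3, whose probe holds a motif (0.54 ± 0.16), were higher. Galnt1, whose enzyme starts O-linked chains, was lower at -0.40 ± 0.09, with a second probe at 0.19 that did not pass.

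Among secretory cargo and granule genes, 6 of 19 (31.6%) were higher and 1 lower (median 0.20), a share near that of all genes. Dmbt1, a mucosal defence protein gene, had log2 ratios of 1.83, 1.83, 1.49 and 1.59 (1.68 ± 0.10, adjusted p = 0.0023), and its second probe was higher at 1.78. Its resveratrol spots were saturated on 2 of the 4 arrays, and the mean was 2.15 in the authors' deposited table. The inflammasome gene Nlrp6, which acts in mucus release in mice, was at 0.93 ± 0.11, the chloride channel gene Cftr at 0.78 ± 0.11, Bcas1 at 0.49 ± 0.13 and the fucosyltransferase gene Fut2 at 0.46 ± 0.10, all higher. Rab3d, a granule GTPase gene, was lower at -0.65 ± 0.08 by its brightest probe and higher at 0.59 by the other, so its direction is not settled. Clca1, an abundant protein of colonic mucus, did not pass: its log2 ratios were -0.32, 0.00, -0.51 and 1.62, with replicate 4 far above the rest. Of the other mucin genes 5 were tested, and Muc3 was higher (0.61 ± 0.17, adjusted p = 0.0302) and Muc5ac, a gastric mucin gene, lower on the 2 arrays with values (-0.51 ± 0.14, adjusted p = 0.0435). Of the 24 called genes named in these lists, 11 lost the call in at least 1 fit with a replicate left out: Bcas1, Gcnt3 and Muc3 without replicate 1, 2 or 4, Creb3l1, Fut2, Galnt1 and Pdia4 without 1 or 2, Ern2 without 1 or 4, Pdia6 and Qsox1 without 1, 2 or 3, and St6galnac1 without any given replicate. Muc5ac could not be refitted without replicate 1 or 2, and its call was lost with median centring (-0.10, adjusted p = 0.779) and in the fit with slide as a random block (adjusted p = 0.0653).

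**Figure D4:**
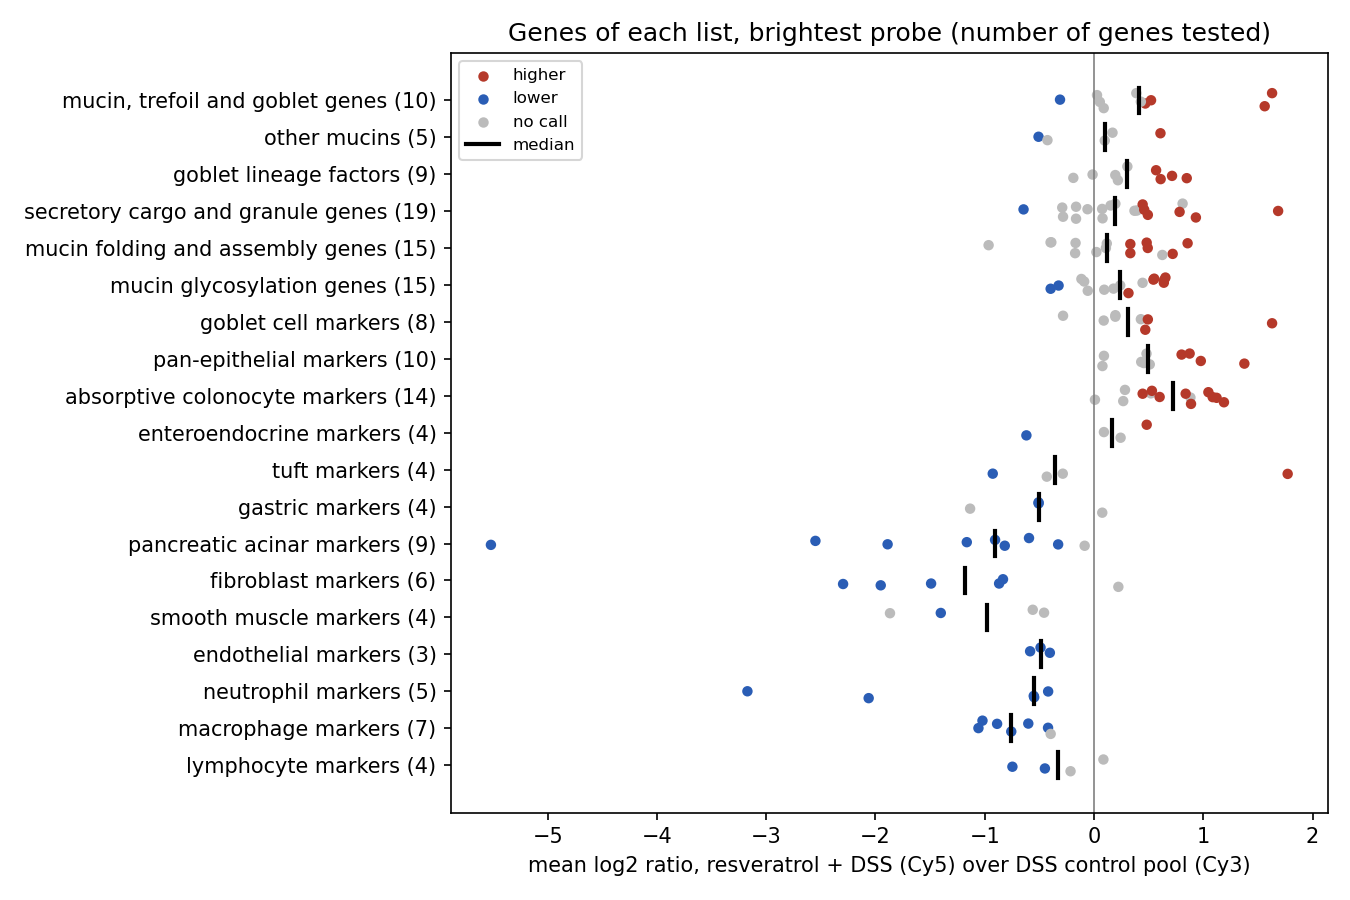
Mean log2 ratio, resveratrol plus DSS over the DSS control pool, of each tested gene by its brightest probe, 1 row per gene list, with called genes in red (higher) or blue (lower), genes without a call in grey and the list median as a black bar. The median is 0.41 for the top row, in which Fcgbpl1 stands in for Fcgbp, 0.72 for absorptive colonocyte markers and -1.18 for fibroblast markers.

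Markers of several other cell types moved too, and their counts stand beside 25.5% of all genes higher and 19.3% lower. Goblet cell markers had 3 of 8 tested genes higher and none lower (median 0.31): Muc2 and Agr2, described above, and Bcas1, while Tff3, Zg16, Clca1, Spdef and Sytl2 did not pass by their brightest probes. A dimmer Sytl2 probe was higher at 0.48. Higher, too, were pan-epithelial markers for 4 of 10 genes (40.0%, median 0.50) and absorptive colonocyte markers for 9 of 14 (64.3%, median 0.72). Fibroblast markers were lower for 5 of 6 tested genes (median -1.18), neutrophil markers for 5 of 5 (-0.55) and macrophage markers for 6 of 7 (-0.76). Endothelial markers were lower for 3 of 3 (-0.49), lymphocyte markers for 2 of 4 (-0.33) and smooth muscle markers for 1 of 4 (-0.98). Enteroendocrine and tuft markers each had 1 of 4 tested genes higher and 1 lower. Summed linear intensity over the probes with 4 values was 35138 to 54292 with resveratrol, against 18471 to 33379 in the control pool, for goblet cell markers, and without Muc2 it was 20982 to 32315 with resveratrol, against 15095 to 25833 in the control pool, with overlapping ranges. For pan-epithelial markers the sum was 33934 to 67448 with resveratrol, against 19185 to 32934 in the control pool. The same sum was 1825 to 3511 with resveratrol, against 8538 to 11816 in the control pool, for fibroblast markers, and 1475 to 4293 with resveratrol, against 8302 to 13205 in the control pool, for neutrophil markers. The part of this shift in cell type markers in the Muc2, Muc4 and Agr2 ratios was not tested.

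Per array, the pan-epithelial median log2 ratio was 0.72, 0.85, -0.06 and 0.77. After loess with outlier spots left out, replicate 3 was thus the low array for epithelial genes as it was for the mucus genes. Absorptive colonocyte markers were at 0.58, 0.78, 0.47 and 0.94, above 0 in replicate 3 too. Pancreatic acinar markers were lower for 8 of 9 tested genes (median -0.91), with a summed intensity of 1685 to 1919 with resveratrol, against 8357 to 10233 in the control pool, and on no array were Amy2a3, Prss1 and Cpb1 well above background with resveratrol. Zg16 is also made in the pancreas, and the part of this pancreatic signal in its ratio was not tested. Of the gastric markers 4 were tested. Muc5ac and Pgc were lower, each with values on only 2 arrays (adjusted p = 0.0435 and 0.0419). The part of gastric signal in the Tff1 and Tff2 ratios was not tested either.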

How the data were processed

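Per the labels' protocols, total RNA of colon mucosa was labelled indirectly and measured on 4 two-colour arrays, which lay on 2 slides. Spot intensity in the deposited files was read by Agilent Feature Extraction 9.5.3.1, with probe positions in build rn3, per the file headers. That software and limma are the tools in the submitters' processing notes. The deposited log10 ratio of each spot was not used for the comparison. The authors' value table holds log2 ratios, Cy5 over Cy3: it followed the scanner's ratios with r of 0.98 to 0.99 and slopes of 0.97 to 1.00, its columns had medians of -0.01, -0.01, 0.09 and -0.02, and its centring is not stated.

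Mean signals were corrected with normexp (offset 50 after the local background median) and normalized by loess within arrays in limma 3.58.1 (R 4.3.3). The 1639 control spots of 45018 and spots marked as outliers had weight 0, and spots of a probe were averaged. Probes well above background in a channel on at least 3 arrays (20436) and with at least 2 values (18896) were tested: the mean log2 ratio against 0, two-sided, by lmFit and eBayes with Benjamini-Hochberg adjustment. Intensities per channel were taken after loess and Aquantile scaling. The control pool counts as a single sample and its own spread is not measured. Replicates were numbered in accession order. Values after ± are moderated standard errors, and precision is limited by the 4 arrays.

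Probes were named by accession, gene ID, symbol or synonym through a RefSeq table of assembly GRCr8, and 18997 stayed unnamed. The rule named every member probe and up to 6 called genes of each list, the widest first, and genes named beside these were chosen after their values were seen. The members and lists were chosen with earlier results of these data known. Some list genes are not reported here. Alternatives were the scanner's processed signals, an offset of 16, median centring, outlier spots kept, no filter, both channels above background, an intensity trend, weights per array, each slide alone or slide as a random block, a standard error widened by the square root of 2, the authors' table, and each replicate left out. The marker sum without Muc2 was chosen after seeing the data. The script was tested on simulated data. Exon and UTR annotation of the probe positions was not used here.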

Additional observations from a re-analysis of the deposited data

How the results depend on the processing

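The main test sets the log2 ratio of the channels within each array against 0. The control side is a pool, so the spread among control rats is not part of the test. The arrays form a single group, so no pairing by replicate number was possible, and slide was the only block tried. Muc2, Muc4 repeat B and Muc4 probe 1 kept their call under every alternative that gave a value. Higher member probes numbered 9 as reported, 14 with outlier spots kept, 14 with median centring, 12 on slide 1 alone, 3 on slide 2 alone, 5 with the wider standard error, and 6 to 12 with a replicate left out. Of all probes, 24.3% were higher as reported, 33.7% with outlier spots kept, 36.3% with median centring, 33.2% on slide 1 alone, 5.16% on slide 2 alone and 7.73% with the wider standard error. Lower member probes numbered 1 as reported and 0 with median centring, with both channels above background, with the slide as a random block, on slide 2 alone, with the wider standard error and with each replicate left out (0 to 0). Over all probes, 4601 higher and 4295 lower became 2587 and 1975 with both channels above background, 749 and 1006 on slide 2 alone, 1460 and 730 with the wider standard error, 1956 to 4755 and 1421 to 4221 with a replicate left out, 6892 and 6248 with outlier spots kept, 6856 and 1842 with median centring, and 6093 and 4672 on slide 1 alone. Called genes of the goblet cell lists numbered 27, against 43 with outlier spots kept, 16 with both channels above background, 8 on slide 2 alone, 8 with the wider standard error and 12 to 27 with a replicate left out. Called cell type markers numbered 52, against 28 with both channels above background, 27 on slide 2 alone, 22 with the wider standard error and 28 to 56 with a replicate left out. Means of probes without a call changed sign: Fcgbpl1 to -0.017 on slide 1 alone and -0.11 in the authors' table (-0.070 to 0.17 with a replicate left out), Tff1 to -0.049 with processed signals and -0.11 on slide 2 alone (-0.0081 to 0.14 with a replicate left out), Tff3 probe 1 to -0.057 without replicate 4 (up to 0.29 without replicate 3), and Tff3 probe 2 to 0.42 when outlier spots were kept and 0.33 with median centring. The wider standard error calls fewer probes by construction, and the cause of the other differences was not tested. Probes at the ceiling of the scanner limit the Muc4 fold, and dim spots limit Tff1 and Tff2.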

Other observations

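A further probe, designed on an expressed sequence contig described as a partial match to colonic mucin MUC2, was not counted as Muc2. The files place it at chr10:45472265-45472324 of rn3, whereas they place Muc6, the neighbour of Muc2 in the RefSeq gene order, on chromosome 1. It was well above background on 2 arrays in each channel, was not tested, and had log2 ratios of -0.01, 0.09, 0.10 and 0.36.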
